A study of Mus musculus with 8 samples.

Results

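The genes described here encode the glutathione and antioxidant defence of the cell. A list of 41 gene symbols was looked up among the 18193 genes that had a probe set of their own on the array, and each was represented by its probe set with the highest mean over the 8 arrays. Of the 41, 37 had such a probe set. The 5 probe sets of Prdx1 carry a second symbol, and Prdx5, Prdx6 and G6pdx had no probe set under their own symbol in the annotation used, so these 4 peroxiredoxin and NADPH genes were not analysed here. Gsta3 and Mgst1 were dim in every group and were measured but not tested, which left 35 tested genes among 13196.

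Cells of 2 established mouse lines were measured: RAW264 macrophages, called RAW below, and CT26 colon tumour epithelial cells. The 4 groups were RAW co-culture, RAW alone, CT26 co-culture and CT26 alone, with 2 arrays each, 1 from each of 2 experiments. In co-culture, RAW cells sat on a porous insert above a well of CT26 cells, so that soluble molecules passed without contact; the inserts were joined to the wells 8 hours after seeding. No genotype change or drug was labelled in any group, and each line is a single cultured line, so the samples are repeats of a culture and not of animals. RAW cells were lysed on the insert and CT26 cells were first lifted with trypsin, so line and harvest cannot be told apart.

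Glutathione is a tripeptide made from imported cystine, and its thiol is spent by peroxidases that reduce peroxides and by transferases that attach it to reactive compounds. The thioredoxin and peroxiredoxin system works beside it, and both draw electrons from NADPH. The transcription factor NRF2, encoded by Nfe2l2, drives many of these genes through antioxidant response elements, and KEAP1 marks NRF2 for degradation. In macrophages this system limits damage from their own oxidants, and tumour cells often rely on it under oxidative stress.

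All levels are log2 expression values (RMA), where 1 unit is a doubling of signal, and pairs of array values are given for experiment 1 and then experiment 2. Levels of different genes are not compared, since probes differ in brightness. All 10 macrophage markers examined lay above the array floor, the 40th percentile of each array at 5.21 to 5.28 log2 units, in both arrays of RAW co-culture and of RAW alone. In CT26 co-culture 4 of them and in CT26 alone 6 of them did. Among 9 epithelial markers 6 did so in each CT26 group, 3 in RAW co-culture and 2 in RAW alone. Cdh1, Cldn7 and Vil1 were the ones that did not in CT26. Epcam averaged 6.98 in RAW co-culture and 6.88 in RAW alone, against 6.93 in CT26 co-culture and 6.87 in CT26 alone. Krt8 and Krt19 also differed little between the lines, so only Krt18, Krt20 and Tjp1 set CT26 apart. The collagen gene Col1a2 averaged 13.63 in CT26 co-culture and 13.55 in CT26 alone. Of the other mesenchymal and matrix markers, Col1a1, Sparc and Fn1 were also higher in CT26 than in RAW cells. Vim averaged 14.26 to 14.79 over the 4 groups and Tagln 5.16 to 5.30, near the floor. The summed linear level of the macrophage markers was 1512 to 1585 in CT26 co-culture and 1606 to 1690 in CT26 alone, against 127884 to 134681 in RAW co-culture. The largest part of the CT26 sums came from Cd14, which averaged 10.09 log2 units in CT26 co-culture and 10.24 in CT26 alone. The summed epithelial markers reached 357 to 375 in RAW co-culture and 355 to 362 in RAW alone, against 7072 to 7573 in CT26 co-culture.

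The promoter windows that follow belong to Gclm, Srxn1, Cat and Gstp1. The first 3 are among the 21 tested genes with lower values in co-cultured RAW cells in both experiments. Gstp1 differed between the lines by over 4 log2 units. Each window spans 300 bases around the RefSeq transcription start in assembly GRCm38.p6 and reads 5′ to 3′ in the direction of the gene. Capitals mark the antioxidant response element core TGACNNNGC or the fuller consensus of NRF2 with small MAF proteins, TGANTCAGC, on either strand. The windows lie at chr3:122245307-122245606 on the plus strand for Gclm, chr2:152105274-152105573 on the plus strand for Srxn1, chr2:103485104-103485403 on the minus strand for Cat and chr19:4037863-4038162 on the minus strand for Gstp1.
Gclm: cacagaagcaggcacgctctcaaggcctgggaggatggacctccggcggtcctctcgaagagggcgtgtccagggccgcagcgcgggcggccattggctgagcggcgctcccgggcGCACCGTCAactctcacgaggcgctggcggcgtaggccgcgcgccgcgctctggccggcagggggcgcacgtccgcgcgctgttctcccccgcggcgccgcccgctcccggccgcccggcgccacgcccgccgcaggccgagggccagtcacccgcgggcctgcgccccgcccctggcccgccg
Srxn1: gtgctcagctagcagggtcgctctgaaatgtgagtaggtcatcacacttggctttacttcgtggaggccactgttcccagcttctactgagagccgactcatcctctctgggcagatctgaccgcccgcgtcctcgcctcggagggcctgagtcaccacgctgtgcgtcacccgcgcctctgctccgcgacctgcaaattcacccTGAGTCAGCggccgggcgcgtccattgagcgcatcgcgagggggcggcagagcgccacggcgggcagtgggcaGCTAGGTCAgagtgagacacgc
Cat: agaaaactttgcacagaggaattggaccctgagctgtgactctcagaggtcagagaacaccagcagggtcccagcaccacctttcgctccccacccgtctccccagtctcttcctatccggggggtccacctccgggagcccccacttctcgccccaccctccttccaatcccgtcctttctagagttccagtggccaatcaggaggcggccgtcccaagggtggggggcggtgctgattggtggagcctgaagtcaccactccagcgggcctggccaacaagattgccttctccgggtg
Gstp1: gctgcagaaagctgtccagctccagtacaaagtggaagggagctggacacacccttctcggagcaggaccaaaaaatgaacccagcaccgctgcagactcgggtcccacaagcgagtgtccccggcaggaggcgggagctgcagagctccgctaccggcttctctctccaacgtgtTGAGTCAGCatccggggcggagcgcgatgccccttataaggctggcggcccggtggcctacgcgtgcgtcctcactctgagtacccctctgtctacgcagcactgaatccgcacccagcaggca

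The core in the Gclm window lay at bases 117 to 125, on the minus strand. Srxn1 held the fuller consensus at bases 206 to 214 and the core at bases 279 to 287, and Gstp1 held the consensus at bases 177 to 185. No letters of either motif were found in this window of Cat, which held 4 CCAAT boxes on either strand (15 of 35 genes of the list, 42.9%, held 1 or more, against 41.1% of all genes with a window). RefSeq windows were found for 35 of the 41 listed genes, and 11 of them (31.4%) held the core, against 14.0% of 27025 genes with a window. The fuller consensus, which overlaps the core where its variable base is C, was held by 3 of the 35 (8.57%), Srxn1, Prdx1 and Gstp1, against 1.37% of all genes. The motif GGGCGG, the GC box, was in 29 of the 35 (82.9%) and in 38.2% of all genes. These are matches of letters in a short window and were not tested. All genes with a window were not matched to the list for base composition or expression. A gene with several windows was counted if any of them held the motif.

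Co-culture of RAW cells went with lower values for most of the antioxidant genes, without a call for any of them in the fit that ignores the experiment. In that fit 11 of 35 genes had an unadjusted p under 0.05 (limma), against 694 of all 13196 genes. At an adjusted p of 0.05 over all genes 0 of 35 passed, where 0.25% of all genes did. The experiments differed in level, and with the experiment as a block per line 8 of 35 passed, 7 lower and 1 higher, against 3.56% of all genes in either direction, 2.01% lower and 1.55% higher. With a block common to the lines 4 passed, Gclm, Gstm1, Cat and Akr1b8, where 1.11% of all genes did. The genes that fell with the block per line were Gclm, Gclc, Cat, Mgst2, Akr1b8, Gstm1 and Srxn1, and Gsta4 rose. Of those that fell, Gclm and Srxn1 held the antioxidant response element core or the fuller consensus in their promoter windows. Cat, Mgst2, Akr1b8 and Gstm1 held neither motif, and no window was found for Gclc. These matches were not tested. In bulk samples such as these, fewer cells with a transcript and less transcript per cell cannot be told apart.

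Within experiments, 21 of the 35 tested genes were lower in both and 7 were higher in both, against 29.1% and 32.5% of all genes. The arrays of RAW co-culture all lay below those of RAW alone for 13 genes and above them for 4, against 12.3% and 14.2% of all genes. The median change over the 35 was -0.13 log2 units, against 0.0083 over all genes tested. Over the 37 measured genes, with the dim ones kept, the median change was -0.13, against 0.0082 over all 18193 genes. The list was drawn up with earlier results of these data known, so these counts describe it and are not independent evidence of its direction. The lower genes include Nqo1, which passed the filter only through RAW alone and CT26 alone, so the filter favoured its fall.

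**Figure D1:**
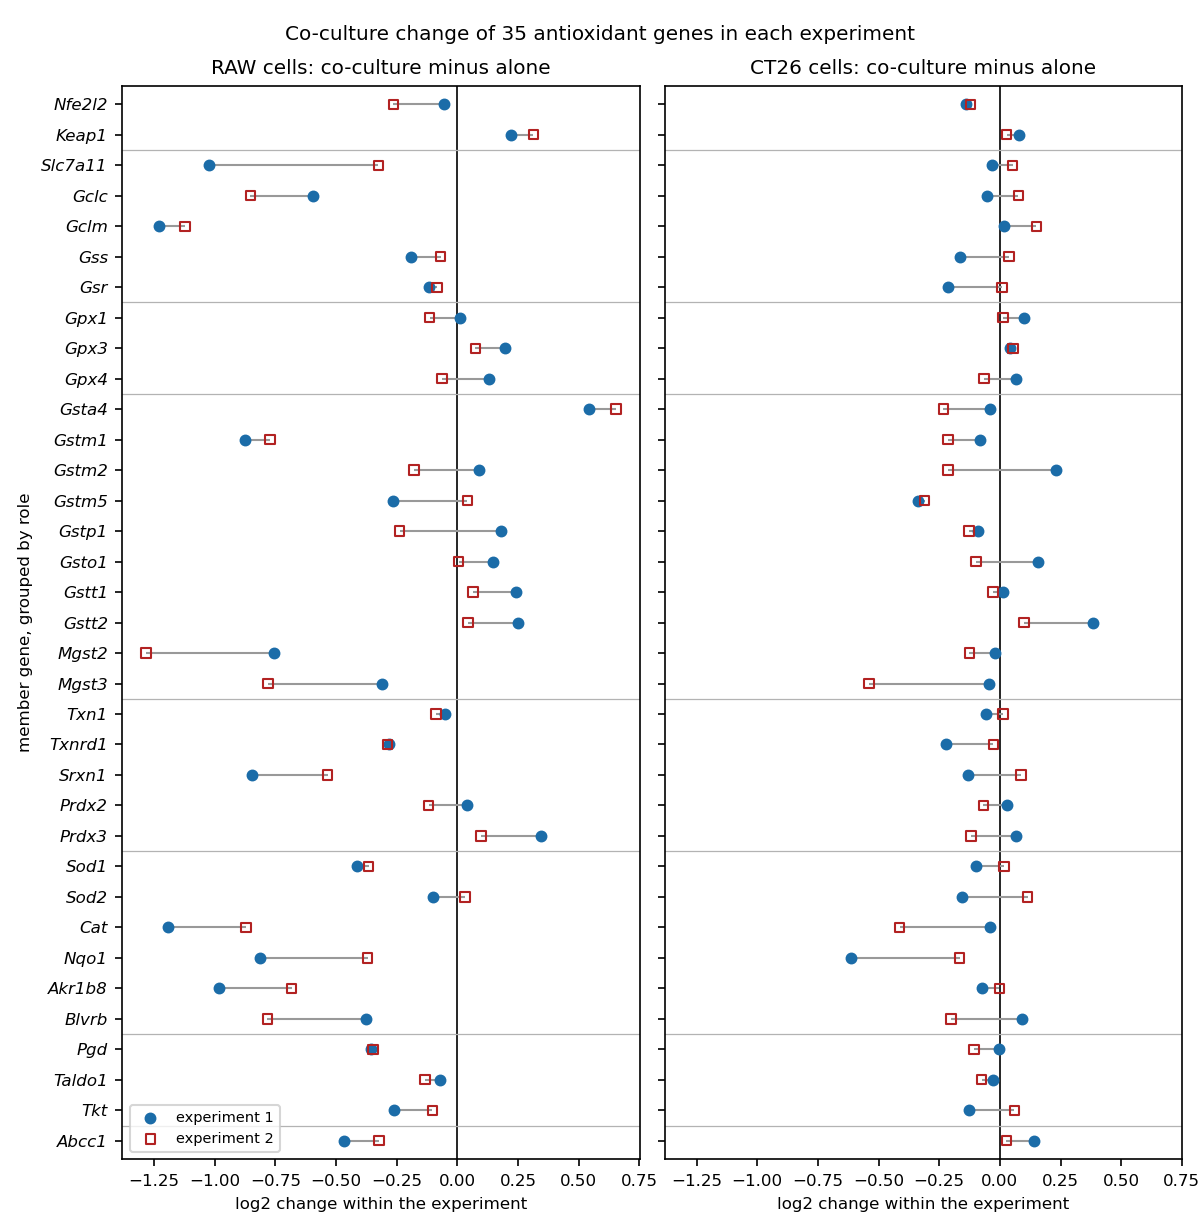
Change in log2 expression, co-culture minus alone, of the 35 tested genes within experiment 1 (filled circles) and experiment 2 (open squares), for RAW cells on the left and CT26 cells on the right, with genes in rows grouped by role and grey bars joining the experiments. In RAW cells 21 genes lie left of 0 in both experiments and 7 right of it, with Gclm near -1.2 in both, and in CT26 cells 13 and 6 do.

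Among the regulators, neither Nfe2l2 nor Keap1 passed in RAW cells in any of the 3 fits. Nfe2l2 had 10.82 and 11.41 in RAW co-culture, against 10.88 and 11.67 in RAW alone, a change of -0.16 ± 0.29 log2 units (SE) that is within the spread of the arrays. Keap1 had 10.35 and 10.47 in RAW co-culture, against 10.13 and 10.15 in RAW alone, a change of 0.27 ± 0.14 (adjusted p = 1.00, and 0.161 under the per-line block). Dimmer probe sets gave 0.72 for Keap1 and 0.36 for Nfe2l2, which is opposite in sign to the brighter Nfe2l2 probe set. For Keap1 the groups did not overlap, while for Nfe2l2 each co-culture array was below its partner and the groups overlapped.

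Gclm, which encodes the modifier subunit of glutamate-cysteine ligase, the first enzyme of glutathione synthesis, had the largest change of the list. It stood at 10.71 and 11.73 in RAW co-culture, against 11.94 and 12.85 in RAW alone, and the 2 groups did not overlap. The change was -1.18 ± 0.45 log2 units (SE), 2.26-fold lower, with adjusted p = 0.875, and under the per-line block the SE was 0.087 and adjusted p = 0.00113. Within experiments the change was -1.23 and -1.12. Gclm was also higher in experiment 2 than in experiment 1 in each of the 4 groups. A dimmer probe set of Gclm gave -1.11. Leaving out array 1 of RAW co-culture or array 2 of RAW alone gave -0.66 and -0.72, and leaving out the other array of each group gave -1.69 and -1.63. These fits had no block, so without 1 array the pairing is broken. The change then also carries the shift of Gclm between the experiments, 0.97 log2 units in RAW arrays. The same limit applies to all values below with an array left out.

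The other genes of cystine uptake and glutathione synthesis were lower in both experiments as well. Gclc, the catalytic subunit of the same ligase, had 11.61 and 12.34 in RAW co-culture, against 12.20 and 13.19 in RAW alone, with groups that overlap. Its change of -0.72 ± 0.35 had adjusted p = 1.00 without a block, and Gclc fell under the per-line block (0.0118). It was -0.36 without array 1 of RAW co-culture and -0.23 without array 2 of RAW alone, and -1.09 and -1.22 without the other array of each group. Slc7a11, the cystine transporter that feeds the pathway, had 8.71 and 8.60 in RAW co-culture, against 9.73 and 8.93 in RAW alone, and the change was larger in experiment 1 (-1.02) than in experiment 2 (-0.33). It did not pass (adjusted p = 0.823, and 0.0752 under the per-line block), although the groups did not overlap, and was -0.27 without array 1 of RAW alone and -1.08 without array 2. Gss, which completes glutathione, and Gsr, which recycles it with NADPH, had changes of -0.13 ± 0.24 and -0.10 ± 0.19, within the spread of the arrays.

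No glutathione peroxidase passed in RAW cells in any of the 3 fits. Gpx1, the cytosolic enzyme, had a difference of -0.051 ± 0.13 log2 units, Gpx4, which reduces lipid peroxides in membranes, of 0.034 ± 0.14, and Gpx3, the secreted enzyme, of 0.14 ± 0.11. Gpx3 had 6.12 and 6.06 in RAW co-culture, against 5.92 and 5.99 in RAW alone, so that its groups did not overlap. With a block per line their 95% intervals were -0.26 to 0.15, -0.19 to 0.25 and -0.066 to 0.34.

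Among the glutathione transferases the values went both ways: 3 of 10 tested genes were lower in both experiments and 4 higher. These shares are close to the 29.1% and 32.5% of all genes. Gstm1, of the mu class, had 7.98 and 7.99 in RAW co-culture, against 8.86 and 8.76 in RAW alone, and each pair was tight. Its change of -0.82 ± 0.11 was 1.77-fold lower and had the smallest adjusted p of the list without a block, 0.0585, and adjusted p = 0.00438 under the per-line block. Other probe sets of Gstm1 gave -0.73, -0.18 and, for the dimmest, -0.024. The probe set used can also match related mu-class transcripts, as its name ends in x_at, so which paralogue it reports is uncertain.

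Mgst2, a membrane-bound transferase, had 10.49 and 9.54 in RAW co-culture, against 11.25 and 10.83 in RAW alone. No array of RAW co-culture reached the level of RAW alone. The difference was -1.02 ± 0.30, or 2.03-fold lower, and Mgst2 fell under the per-line block (adjusted p = 0.604 without and 0.00976 with the block). Without array 2 of RAW co-culture the Mgst2 difference was -0.55, and its range without any 1 array was -1.495 to -0.545. Mgst3, of the same family, had -0.55 ± 0.35 and did not pass (adjusted p = 0.125 under the per-line block). A dimmer probe set of Mgst3 gave 0.12, opposite in sign. Gsta4, an alpha-class enzyme that handles aldehydes from oxidised lipids, was higher in co-culture, with 6.03 and 6.45 in RAW co-culture, against 5.49 and 5.79 in RAW alone. It rose under the per-line block, by 0.60 ± 0.092 log2 units (SE with the block; adjusted p = 0.738 without and 0.0193 with the block), and its groups did not overlap. Without array 2 of RAW co-culture it was 0.39. Gsta4 lay close above the floor in RAW alone, so the size of its rise is not well measured. Gsto1, Gstt1 and Gstt2 had differences of 0.075, 0.15 and 0.15, and Gstm2, Gstm5 and Gstp1 of -0.045, -0.11 and -0.030, without passing in any fit. A dimmer probe set of Gsto1 gave -0.11. Gstm2 and Gstm5 lay under the floor in RAW cells.

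In the thioredoxin system, Srxn1, which restores overoxidised peroxiredoxins, had 9.30 and 10.21 in RAW co-culture, against 10.15 and 10.74 in RAW alone. The groups overlapped, yet each co-culture array was below its partner, by 0.85 and 0.53 log2 units. Srxn1 fell under the per-line block (-0.69 ± 0.11, SE with the block; adjusted p = 0.0221, and 1.00 without it), and its 3 other probe sets gave -0.62, -0.45 and -0.27. It was -0.24 without array 1 of RAW co-culture and -0.39 without array 2 of RAW alone, and -1.14 without array 2 of RAW co-culture. Txnrd1, which reduces thioredoxin, had -0.28 in experiment 1 and -0.29 in experiment 2 (adjusted p = 0.159 under the per-line block). Txn1, thioredoxin itself, Prdx2 and the mitochondrial Prdx3 had differences of -0.071, -0.041 and 0.22, without passing.

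Cat, which encodes catalase, the enzyme that splits hydrogen peroxide, stood at 10.94 and 10.66 in RAW co-culture, against 12.13 and 11.54 in RAW alone. All arrays of RAW co-culture were lower, by 2.05-fold on average (-1.03 ± 0.27), and Cat fell under the per-line block (adjusted p = 0.454 without and 0.00763 with the block). Its other probe set, about as bright, gave -1.09. Akr1b8, an aldo-keto reductase of reactive aldehydes, had 12.41 and 12.71 in RAW co-culture, against 13.39 and 13.39 in RAW alone. It fell under the per-line block, by 0.83 log2 units (-0.83 ± 0.10, SE with the block; adjusted p = 0.14 without and 0.00763 with the block).

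The remaining reductases and dismutases did not pass in any fit. Sod1, the copper-zinc dismutase, had -0.39 ± 0.11 (adjusted p = 0.0616 under the per-line block), Blvrb, a biliverdin and flavin reductase, -0.58 ± 0.15 (0.0616), and the quinone reductase gene Nqo1 -0.59 ± 0.22 (0.0891). Nqo1 was close to the floor in every group and under it in both arrays of RAW co-culture, so the size of its change is not well measured. It passed the filter only through RAW alone and CT26 alone, so a lower value in co-culture was favoured by the filter. Other probe sets of Sod1 gave from -0.26 to -0.027. Sod2, the mitochondrial dismutase, had -0.035 ± 0.12, and its other probe sets gave -0.13, -0.21 and -0.27.

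The tested genes of the pentose phosphate pathway, which is a source of NADPH, were lower in both experiments without passing. Pgd had -0.35 ± 0.11 (adjusted p = 0.0802 under the per-line block), Tkt -0.18 ± 0.12 and Taldo1 -0.10 ± 0.10. Abcc1, which exports glutathione conjugates, had -0.40 ± 0.19 (adjusted p = 0.0665 under the per-line block).

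**Figure D2:**
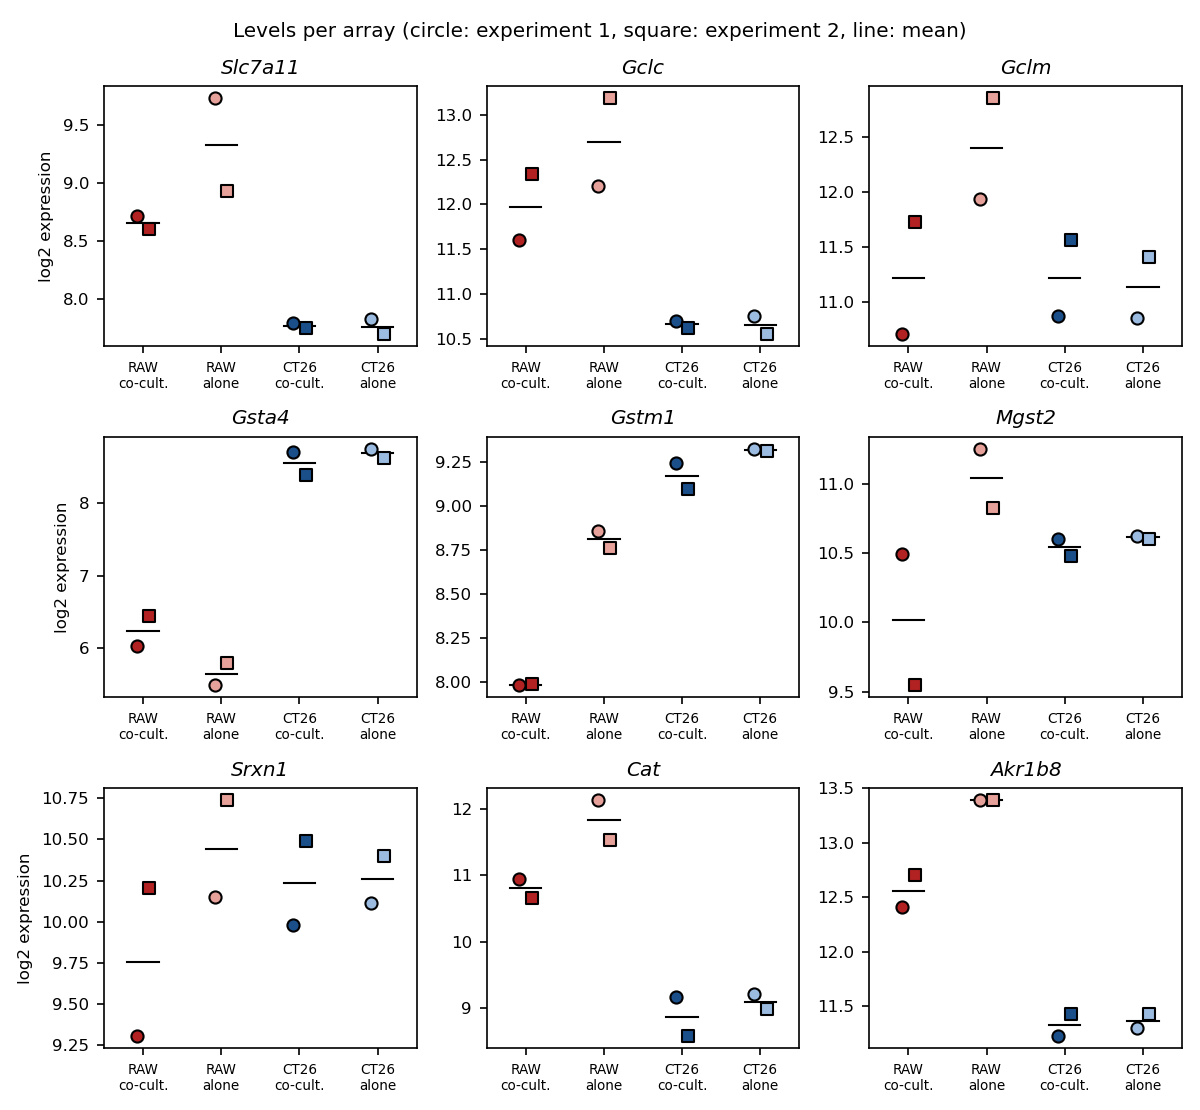
Log2 expression per array of the 8 genes that passed in RAW cells under the per-line block and of Slc7a11, with circles for experiment 1, squares for experiment 2 and a line for the mean of 2 arrays, in the order RAW co-culture, RAW alone, CT26 co-culture and CT26 alone (the vertical axes differ and do not start at 0). Gstm1 sits near 8.0 in both arrays of RAW co-culture and at 8.76 to 8.86 in RAW alone, while Gclm and Srxn1 are higher in experiment 2 in all 4 groups.

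In co-cultured CT26 cells no gene of the list passed in any of the 3 fits, and 0% of all genes did. At an unadjusted p under 0.05, limma had 0 of the 35 genes without a block, against 107 of all 13196. It had 1 with the block common to the lines (356 of all genes) and 2 with separate blocks (752 of all genes). The lowest adjusted p of the 35 genes over these fits was 0.761, that of Gstm5. The median change was -0.033 log2 units, against -0.012 over all genes, and 13 genes were lower and 6 higher in both experiments, against 30.1% and 23.8% of all genes. The arrays of CT26 co-culture all lay below those of CT26 alone for 4 genes and above them for 2, against 11.3% and 9.69% of all genes.

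The 8 largest changes of 1 sign in both CT26 experiments were small. Nqo1 had 5.02 and 5.66 in CT26 co-culture, against 5.64 and 5.83 in CT26 alone, with -0.62 in experiment 1 and -0.17 in experiment 2. It lay close to the floor and passed the filter only through the groups grown alone, so the filter favoured its fall. Gstm5, of the mu class, had 6.57 and 6.48 in CT26 co-culture, against 6.91 and 6.79 in CT26 alone, a change of -0.32 ± 0.17 with groups that did not overlap. Gstt2, of the theta class, had 4.56 and 4.67 in CT26 co-culture, against 4.18 and 4.57 in CT26 alone, all under the floor.
For Mgst3 and Cat the lower value was mostly that of experiment 2. Mgst3 had 11.05 and 10.33 in CT26 co-culture, against 11.09 and 10.87 in CT26 alone, and its dimmer probe set gave a change of 0.076. Cat had 9.17 and 8.58 in CT26 co-culture, against 9.21 and 8.99 in CT26 alone. Without array 2 of CT26 co-culture the change of Mgst3 was 0.069, that of Cat 0.071 and that of Gsta4 0.019, all of the opposite sign.
Gstm1 had 9.24 and 9.10 in CT26 co-culture, against 9.32 and 9.31 in CT26 alone, and Gsta4 had 8.70 and 8.39 in CT26 co-culture, against 8.75 and 8.63 in CT26 alone. Nfe2l2 had 11.33 and 11.52 in CT26 co-culture, against 11.47 and 11.64 in CT26 alone. The changes were -0.15 ± 0.11 for Gstm1, -0.14 ± 0.20 for Gsta4 and -0.13 ± 0.29 for Nfe2l2, and none passed in any of the 3 fits.

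For the genes that fell in RAW cells, how far CT26 values limit a like change depends on the fit. Without a block the 95% interval of the CT26 change was -0.996 to 1.16 log2 units for Gclm, -0.83 to 0.85 for Gclc, -0.42 to 0.12 for Gstm1, -0.79 to 0.65 for Mgst2, -0.85 to 0.80 for Srxn1, -0.87 to 0.41 for Cat and -0.38 to 0.31 for Akr1b8. Those of Gclc and Srxn1 contain the RAW change. With a block per line the 95% interval of the CT26 change was -0.12 to 0.29 log2 units for Gclm, -0.22 to 0.25 for Gclc, -0.35 to 0.06 for Gstm1, -0.38 to 0.24 for Mgst2, -0.28 to 0.24 for Srxn1, -0.52 to 0.07 for Cat and -0.28 to 0.20 for Akr1b8. Whether the effect differs between the lines was tested as the RAW effect minus the CT26 effect. Without a block 0 of 35 genes passed, where 0.00758% of all genes did, and 4 of the 35 had an unadjusted p under 0.05, against 328 of all 13196. With the common block 0 passed as well (0.0834% of all genes did). There 11 of the 35 had an unadjusted p under 0.05, against 888 of all genes. With a block per line 1 passed, against 0.743% of all genes. That gene was Gclm, with a difference of -1.26 ± 0.64 (adjusted p = 1.00 without, 0.1 with the common block and 0.00921 under the per-line block), and -1.24 and -1.27 within the experiments. For Cat (-0.81), Mgst2 (-0.95), Akr1b8 (-0.79), Gstm1 (-0.68), Srxn1 (-0.67), Gclc (-0.74) and Gsta4 (0.74) the difference between the lines did not pass, with adjusted p from 0.0759 to 0.146 under the per-line block.

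Between the lines grown alone, 6 of 10 tested transferases were lower and 1 higher in RAW cells, by calls without a block. By the same calls 2 of 5 genes of cystine uptake and glutathione synthesis were higher, and so were all 3 tested pentose phosphate genes. Under the per-line block 3 transferases were called higher and 6 lower, and 4 synthesis and uptake genes higher and 1 lower. Of the 35 genes 20 passed without a block, 13 higher and 7 lower in RAW cells, against 34.6% of all genes in either direction, 17% higher and 17.6% lower. In co-culture 21 passed, 13 higher and 8 lower in RAW, against 34.8% of all genes, 17.7% higher and 17% lower. The per-line block gave 28 calls in each comparison, against 58.6% (alone) and 58% (co-culture) of all genes, and in co-culture 13 of the 28 were lower, against 28.9% of all genes. Gstm2 and Gstm5 passed the filter through CT26 cells and Gstt2 through RAW cells, so these 3 had to differ, and the counts describe the tested genes without supporting a difference of the list. The co-culture and line comparisons share arrays and are given side by side.

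**Figure D3:**
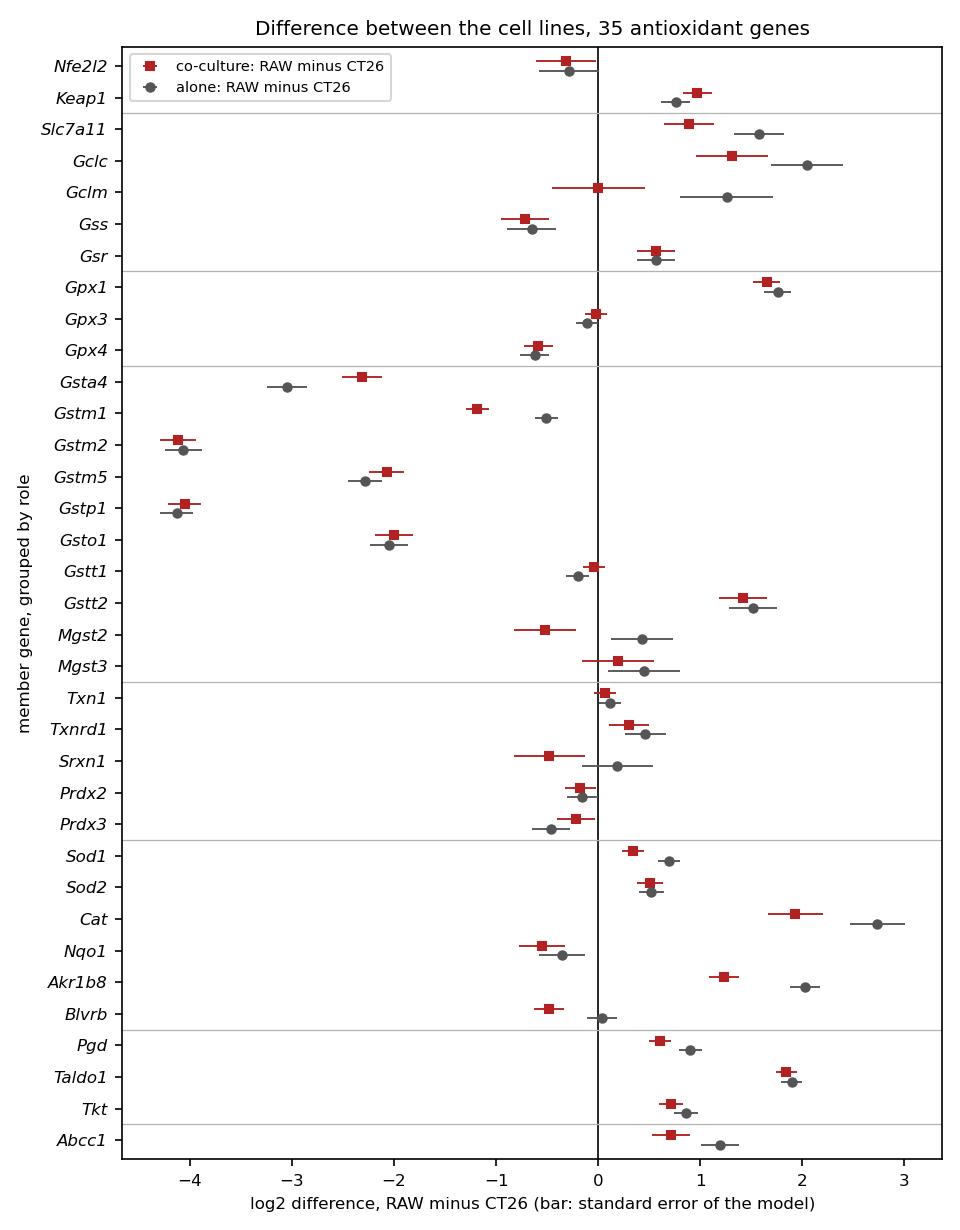
Difference in log2 expression between the lines, RAW minus CT26, of the 35 tested genes in co-culture (squares) and alone (circles), with the standard error of the model and genes in rows grouped by role. Gstp1 and Gstm2 lie near -4 in both conditions, while Cat, Akr1b8, Taldo1 and Gpx1 lie above 1 in both.

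Gstp1, a transferase of the pi class whose probe set may also match its close copy Gstp2, had 9.86 and 9.84 in RAW alone, against 13.92 and 14.04 in CT26 alone, a difference of -4.13 ± 0.16 log2 units, or 17.5-fold (adjusted p = 2.88e-06). In co-culture it had 10.04 and 9.60 in RAW, against 13.83 and 13.91 in CT26. Gsto1, of the omega class, had 11.25 and 10.95 in RAW alone, against 13.09 and 13.21 in CT26 alone, a difference of -2.05 ± 0.18, and 11.40 and 10.95 in RAW co-culture, against 13.25 and 13.11 in CT26 co-culture. For both genes every RAW array was below every CT26 array, and the line difference was about the same in co-culture and alone.
Gstm2 had 4.19 and 4.58 in RAW alone, under the floor, against 8.40 and 8.51 in CT26 alone, and 4.28 and 4.40 in RAW co-culture, against 8.63 and 8.29 in CT26 co-culture. Gstm5 had 4.79 and 4.34 in RAW alone, also under the floor, against 6.91 and 6.79 in CT26 alone, and 4.53 and 4.38 in RAW co-culture. The differences of -4.06 and -2.28 when alone are therefore not well measured in size. Gsta4 was 8.26-fold lower in RAW alone than in CT26 alone (-3.05 ± 0.20), and 4.96-fold lower in co-culture (-2.31 ± 0.20). Its values in RAW alone, 5.49 and 5.79, lay close above the floor, so the size of the first difference is not well measured. Gstm1 had -0.51 ± 0.11 (adjusted p = 0.0124) alone and -1.18 ± 0.11 in co-culture, and the first missed the threshold with its probe sets averaged (adjusted p = 0.0545) and without array 1 or 2 of CT26 alone or array 2 of RAW alone (0.0652 to 0.0704).
Gstt2, of the theta class, was the only transferase called higher in RAW cells without a block, and it passed the filter through RAW cells alone. It had 6.07 and 5.71 in RAW alone, against 4.18 and 4.57 in CT26 alone. The CT26 values are below the floor. Co-cultured RAW cells had 6.32 and 5.75. Mgst2 (0.43 ± 0.30) and Mgst3 (0.45 ± 0.35) were also higher in RAW cells when alone in both experiments, and passed under the per-line block (adjusted p = 0.0269 and 0.0402, and 0.331 and 0.38 without a block). The dimmer probe set of Mgst3 gave -0.059.

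The peroxide-reducing enzymes split between the lines. Gpx1 had 14.41 and 14.38 in RAW alone, against 12.71 and 12.57 in CT26 alone, a 3.38-fold difference (1.76 ± 0.13, adjusted p = 6.41e-05), and 14.42 and 14.27 in RAW co-culture, against 12.81 and 12.58 in CT26 co-culture. Cat was 6.65-fold higher in RAW than in CT26 cells when alone (2.73 ± 0.27) and 3.81-fold higher in co-culture (1.93 ± 0.27). Gpx4 was lower in RAW, with 12.88 and 12.76 in RAW alone, against 13.44 and 13.44 in CT26 alone (-0.62 ± 0.14, adjusted p = 0.0136). In co-culture Gpx4 had 13.01 and 12.70 in RAW, against 13.51 and 13.37 in CT26. Sod1 (0.70 ± 0.11) and Sod2 (0.52 ± 0.12) were higher in RAW cells when alone. Prdx2 (-0.15) and Txn1 (0.12) passed in none of the 3 fits, and Prdx3 (-0.46) passed with either block (adjusted p = 0.103 without, 0.0102 with the common and 0.00609 under the per-line block). The call of Gpx4 ended without array 1 or 2 of CT26 alone or array 2 of RAW alone (adjusted p from 0.0689 to 0.0712), and in co-culture without array 1 of CT26 or array 2 of RAW (0.0937 and 0.0853).

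Gclc and Slc7a11 were the called genes of glutathione synthesis and cystine uptake. Gclc was 4.13-fold higher in RAW than in CT26 cells when alone (2.05 ± 0.35, adjusted p = 0.00401) and 2.48-fold higher in co-culture, and Slc7a11 2.98-fold and 1.85-fold higher. In co-culture the call of Gclc ended without either CT26 array or array 2 of RAW (adjusted p from 0.0852 to 0.131), and that of Slc7a11 without any 1 of the arrays other than RAW alone (0.0513 to 0.113). Gclm was 2.39-fold higher in RAW alone (1.26 ± 0.45, adjusted p = 0.0733, and 1.75e-05 under the per-line block), with 11.94 and 12.85 against 10.86 and 11.41 in CT26 alone. In co-culture Gclm had 10.71 and 11.73 in RAW, against 10.88 and 11.56 in CT26, so the lines overlapped there, with a difference of 0.0010 ± 0.45. Gsr was higher in RAW cells when alone as well, with 11.14 and 11.39 in RAW alone, against 10.61 and 10.79 in CT26 alone (0.57 ± 0.19, adjusted p = 0.0568, and 0.0015 under the per-line block). Gss had the opposite sign, at -0.65 ± 0.24 alone (adjusted p = 0.0757, and 0.000766 under the per-line block).
Taldo1 had 14.19 and 14.24 in RAW alone, against 12.30 and 12.34 in CT26 alone, a 3.72-fold difference with little spread, and 14.12 and 14.11 in RAW co-culture, against 12.27 and 12.27 in CT26 co-culture. Pgd (0.90 ± 0.11) and Tkt (0.86 ± 0.12) were higher in RAW cells when alone as well. Akr1b8 was 4.08-fold higher alone and 2.36-fold higher in co-culture. Abcc1 had 11.91 and 12.23 in RAW alone, against 10.87 and 10.89 in CT26 alone, a difference of 1.19 ± 0.19, and 11.45 and 11.91 in RAW co-culture, against 11.01 and 10.92 in CT26 co-culture.
Of the regulators, Keap1 was higher in RAW, with 10.13 and 10.15 in RAW alone, against 9.25 and 9.51 in CT26 alone (0.76 ± 0.14, adjusted p = 0.0057), and 10.35 and 10.47 in RAW co-culture, against 9.33 and 9.54 in CT26 co-culture. Nfe2l2 differed by -0.28 ± 0.29 when alone and did not pass without a block (adjusted p = 0.517, 0.199 with the common block and 0.032 under the per-line block), with -0.59 in experiment 1 and 0.027 in experiment 2. Blvrb did not differ beyond its spread alone (0.040 ± 0.15), and in co-culture it had 11.46 and 11.14 in RAW, against 11.87 and 11.70 in CT26 (-0.48 ± 0.15, adjusted p = 0.0417). That call ended without any 1 of 7 arrays, all but array 1 of RAW co-culture (adjusted p from 0.0607 to 0.191).

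The share of these genes that differed between the experiments was close to that of all genes. With a term for the experiment shared by the lines, 9 of 35 genes passed, 6 higher and 3 lower in experiment 2 than in experiment 1, against 28.1% of all genes, 16.8% higher and 11.3% lower. Gclm had the largest shift, 0.79 ± 0.092 log2 units (adjusted p = 0.00235), with 0.97 in RAW and 0.62 in CT26 arrays. Srxn1 had 0.57 ± 0.10, Nfe2l2 0.43 ± 0.12, Gss 0.38 ± 0.069, Txnrd1 0.31 ± 0.065 and Gsr 0.28 ± 0.067. Mgst3 (-0.56 ± 0.12), Cat (-0.42 ± 0.089) and the mitochondrial peroxiredoxin gene Prdx3 (-0.26 ± 0.077) were lower in experiment 2. Gclc shifted by 0.86 in RAW and by -0.14 in CT26 arrays and did not pass (adjusted p = 0.24). What differed between the occasions is not labelled and was not tested.

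**Figure D4:**
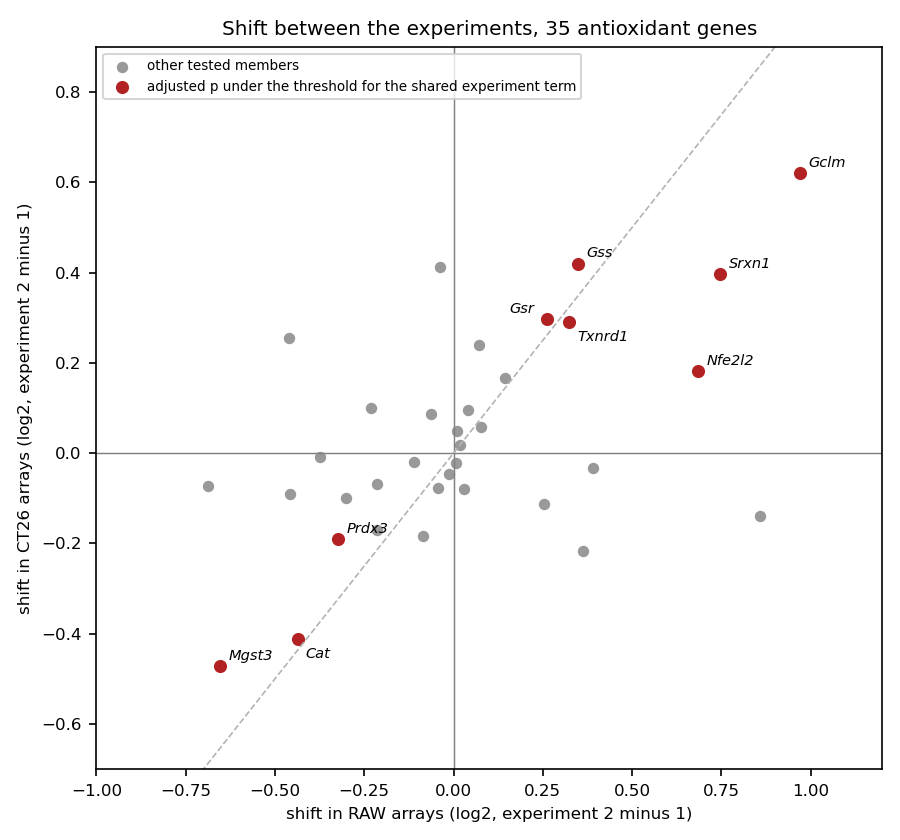
Shift in log2 expression, experiment 2 minus experiment 1, in RAW arrays (horizontal axis) and in CT26 arrays (vertical axis), 1 point per tested gene, with the 9 genes past the threshold for the shared experiment term in red and named, and a dashed line where both shifts are equal. Gclm lies farthest to the upper right, at 0.97 and 0.62, and Mgst3 farthest to the lower left among the named genes.

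Other genes of the pathway were taken from a list of 92 symbols that shares no gene with the 41. Of these 83 were on the array and 77 were tested. In RAW cells 1 passed without a block, Ephx1, where 0.25% of all genes did. Under the per-line block 10 passed, 7 lower and 3 higher, against 3.56% of all genes, 2.01% lower and 1.55% higher. The median change was -0.038, against 0.0083 over all genes. In both experiments 32 genes were lower (41.6%) and 22 higher (28.6%), against 29.1% and 32.5% of all genes. In CT26 cells 0 passed in any of the 3 fits (limma), with 2 to 7 at an unadjusted p under 0.05, against 107 to 752 of all 13196.
Ephx1, an epoxide hydrolase, had 7.84 and 8.14 in RAW co-culture, against 9.11 and 9.26 in RAW alone, and fell by 1.20 ± 0.14 log2 units (adjusted p = 0.0419, and 0.0014 under the per-line block). Without any 1 of the 8 arrays it no longer passed. Hmox1, which encodes haem oxygenase, had 10.05 and 10.87 in RAW co-culture, against 11.15 and 11.74 in RAW alone, and fell under the per-line block (-0.98, adjusted p = 0.692 without and 0.00942 with the block). H6pd, which makes NADPH in the endoplasmic reticulum, had 7.16 and 7.96 in RAW co-culture, against 8.25 and 8.61 in RAW alone (adjusted p = 0.0117 under the per-line block). All 3 were lower in each co-culture array than in either array of RAW alone.
Cbr3, a carbonyl reductase, had 10.00 and 9.55 in RAW co-culture, against 10.93 and 10.23 in RAW alone (adjusted p = 0.0321 under the per-line block). Chac1, which degrades glutathione and is a target of the ATF4 stress pathway, had 7.50 and 8.67 in RAW co-culture, against 6.97 and 7.72 in RAW alone, with overlapping groups, and rose under the per-line block (0.74, adjusted p = 0.0209). The others that passed with that block were Glrx (-0.67), Akr1c13 (-0.63) and Me1 (-0.56), which fell, and Cth (0.59) and Txnip (0.51), which rose. Cth makes cysteine from cystathionine, and Txnip binds and inhibits thioredoxin.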

How the data were processed

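Total RNA (5 µg) of 8 cultures was labelled with biotin and hybridised to 1-colour Affymetrix arrays. The deposited files hold log2 expression values, which the authors obtained by RMA with affy (per the submitters' processing notes, which give no version). RMA compresses low signals and so understates changes near the floor, and with 2 arrays a group precision is limited by their number. Array medians were 5.89 to 5.95. Symbols came from the platform annotation, which gave 1 symbol for 34945 of 45037 probe sets. Testing required a signal over the 40th percentile of each array in both arrays of some group.

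limma 3.58.1 in R 4.3.3 fitted the 4 group means to all genes (4 residual degrees of freedom), with two-sided tests and Benjamini-Hochberg adjustment over 13196 genes. Fits with the experiment as a block, shared (3 degrees) or per line (2 degrees), were alternatives. Fits with 1 array left out had no block, so they break the pairing and also carry the shift between the experiments. The replicate numbers in the labels mark the occasion of the experiment, and deviations of same-numbered arrays correlated at 0.484 to 0.765 across genes in every pair of groups, so the numbers pair the samples. Nothing in the labels shows cultures beyond these repeats, so p-values measure the spread between samples of 2 experiments. Group errors are SE of the model unless stated. The code was tested on simulated data.

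The members, the lists and the promoter motifs were chosen with earlier results of these data known, and the fuller NRF2 consensus after the windows were seen. Every member is named; array values are given for members past the threshold, with or without a block per line, in a co-culture or interaction contrast, for the 8 largest changes of 1 sign in each line and, in the line contrasts, for the 8 largest called differences per direction; of the other pathway genes, the 5 largest changes in RAW are given in full.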

Additional observations from a re-analysis of the deposited data

Results flagged for a closer look

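The co-culture effect on Gclm differed between the lines: the RAW effect minus the CT26 effect was -1.26 log2 units. It passed with an experiment block per line (adjusted p = 0.00921) and neither with a shared block (0.1) nor without a block (1.00). The value was -1.24 in experiment 1 and -1.27 in experiment 2, and -1.77 to -0.75 with an array left out and no block. That range also carries the shift of Gclm between the experiments. Groups of 2 arrays are too small for a test of outlying samples.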

How the results depend on the processing

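Groups of 2 arrays limit these results, since the shift between experiments enters the error unless it is blocked. For RAW co-culture against RAW alone, 0 members passed without a block, 4 with a replicate block shared by the lines, 8 with a replicate block per line and 1, Gstm1, with dim probe sets kept. Of the other pathway genes 1 passed, against 3 and 10 with the shared and the per-line block, and 0 without any single array. For the difference between the lines' effects, 1 member passed with a block per line, and members called lower in RAW than in CT26 co-culture numbered 8 without a block and 13 with a block per line. The median member change in RAW was -0.13, -0.16 with probe sets averaged, -0.14 after cyclic loess and -0.24 to -0.11 with an array left out. In CT26 it was -0.033, -0.051 with probe sets averaged, -0.0097 after cyclic loess and -0.073 to -0.027 with an array left out. Leaving out an array gave 0 called members in each co-culture comparison, 17 to 21 between the lines alone and 14 to 19 in co-culture. It turned the sign in CT26 for Mgst3 (-0.65 to 0.069), Cat (-0.53 to 0.071) and Gsta4 (-0.29 to 0.019). Of 392 values of single genes with an array left out, 365 kept direction and side of the threshold and 24 lost their call. Cyclic loess and a variance trend changed no call of a single named member (49 each).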

Other observations

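Among the other pathway genes 41 of 77 were called between the lines grown alone, 24 higher and 17 lower in RAW alone than in CT26 alone. Of all genes 34.6% were called, 17% higher and 17.6% lower. The genes named next were picked for the size of their difference. Glrx, which encodes a glutaredoxin, had 12.76 and 13.11 log2 units in RAW alone, against 9.29 and 9.37 in CT26 alone (3.61 ± 0.19, SE). Ptges, a glutathione-dependent prostaglandin synthase, had 7.61 and 7.32 in RAW alone, against 10.61 and 11.13 in CT26 alone (-3.40 ± 0.21). Several others lay at or under the array floor of 5.21 to 5.28 in 1 line. They passed the filter through the other line and so had to differ, and the size of the difference is not well measured. The counts above therefore describe the tested genes without supporting a difference of the list. The carbonyl reductase gene Cbr3 had 10.93 and 10.23 in RAW alone, against 4.96 and 4.63 in CT26 alone, and Cbr1 had 9.38 and 8.91 in RAW alone, against 4.89 and 5.27 in CT26 alone. Gpx8, a peroxidase of the endoplasmic reticulum, had 4.37 and 4.67 in RAW alone, against 11.62 and 11.61 in CT26 alone. In the comparison of co-culture effects between the lines, Ephx1 (-1.19) and Hmox1 (-1.19) passed with an experiment block per line (adjusted p = 0.0162 and 0.0399), and neither did with the block common to the lines (0.0822 and 0.502) or without a block (0.426 and 1.00).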
